A study of Chlorocebus sabaeus with 3 samples.

Results

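The cell-free RNA of the amniotic fluid from a vervet monkey (Chlorocebus sabaeus) pregnancy that ended in spontaneous abortion was set against that from a pregnancy with a live outcome. The genes compared were all those with an RPKM, the reads per kilobase of gene scaled to the size of the library, of at least 1 in either library, which chose 10817 of the 33994 genes listed. Of these, 9554 reached RPKM 1 in both libraries, 602 in that of the spontaneous abortion alone and 661 in the alive library alone. In the 602 and the 661, the direction of the ratio before scaling follows from the threshold. This holds for every gene named below with an RPKM under 1 in only 1 of the 2 libraries compared. The series holds 3 libraries, 1 for each outcome, from the supernatant left after the cells of the fluid were removed. The fetus of the spontaneous abortion has no sex label (NA), that of the live outcome is labelled F, and that of the third pregnancy, a stillbirth, M. The sources used here do not give gestational age, maternal age, treatment or the time between loss and sampling, and they name no allele or agent for any group.

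Each group is 1 library from 1 pregnancy, so the comparison describes these fluids and carries no p-value. The spontaneous abortion library held 29926352 assigned reads, the alive library 20220899 and the stillborn library 17749954. Intervals are exact 95% intervals of the ratio of reads. They cover the counting error of reads only, and not the spread between pregnancies or samplings. The libraries were amplified and carry no molecular identifiers, so copies of 1 molecule can count as separate reads and the error in molecules can be wider. In what follows, 3 RPKM values in a row belong to the spontaneous abortion, the alive and the stillborn library in that order, and the last is given for orientation. Folds are scaled between the first 2 libraries, which multiplies the ratio of their RPKM by 1.03.

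Amniotic fluid surrounds the fetus and takes up material from the amnion, the fetal skin, the mouth, airways and gut, the kidneys and the membranes on the maternal side. RNA freed from those tissues survives in the fluid in part, in vesicles or bound to protein. Placenta and decidua, the lining of the pregnant uterus, can add to it, as can blood cells of mother or fetus. In a bulk sample of this kind, fewer cells of a type and less RNA per cell cannot be told apart.

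Most transcripts stood at close levels in both fluids. Of the 10817 genes, 9765 (90.3%) lay within 2-fold, and they held 97.8% of the summed RPKM of the spontaneous abortion and 97.9% of that of the alive library. The log2 ratio, on log2(RPKM + 0.1), had a median of -0.01, with 10% of genes below -0.65 and 10% above 0.65. A gene was counted as apart where its fold was at least 4, its interval excluded 1 and the higher library held at least 30 reads. By that rule 113 genes (1.04% of those compared) were higher in the spontaneous abortion and 92 (0.851%) lower. With 2-fold in place of 4-fold, the counts were 483 (4.47%) higher and 420 (3.88%) lower, and these shares are the background for every gene list below.

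**Figure D1:**
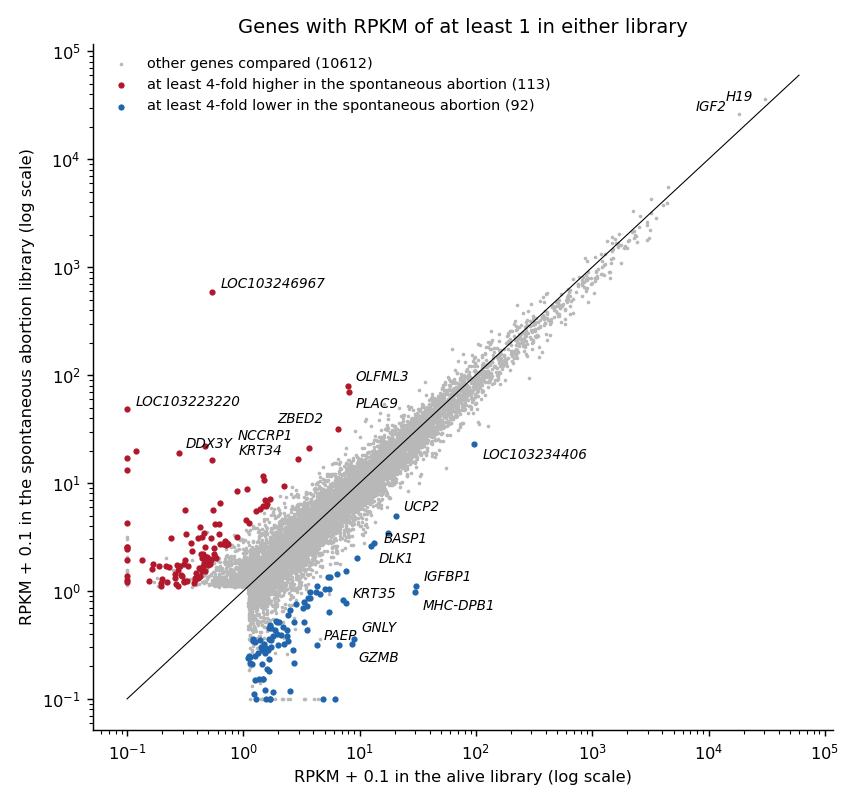
RPKM + 0.1 of each gene in the alive library (x axis) and the spontaneous abortion library (y axis), both on log scales, with the line of equal values. Red points mark the 113 genes at least 4-fold higher and blue points the 92 at least 4-fold lower in the spontaneous abortion, which lie mostly at low levels, while H19 and IGF2 at the top right lie near the line.

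The far ends of the range were thinly filled and low in level. At least 16-fold higher were 19 genes and at least 16-fold lower 26, while 402 genes were 2-fold to 4-fold higher and 385 were 2-fold to 4-fold lower. Among the 613 genes with a mean RPKM under 1, 19.6% passed the 2-fold rule as higher and 15.2% as lower. Among the 2109 genes with a mean between 10 and 30, the shares were 1.52% and 1.56%. None of the 59 genes with a mean over 1000 passed in either direction. The medians of short genes lay lower than those of long ones. The median log2 ratio was -0.27 for the 471 genes with a recovered length under 500 bases, -0.20 for the 1184 of 500 to 1000 bases, and 0.07 for the 1499 of 8000 to 16000 bases. The part of gene length in the list medians below was not tested.

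**Figure D2:**
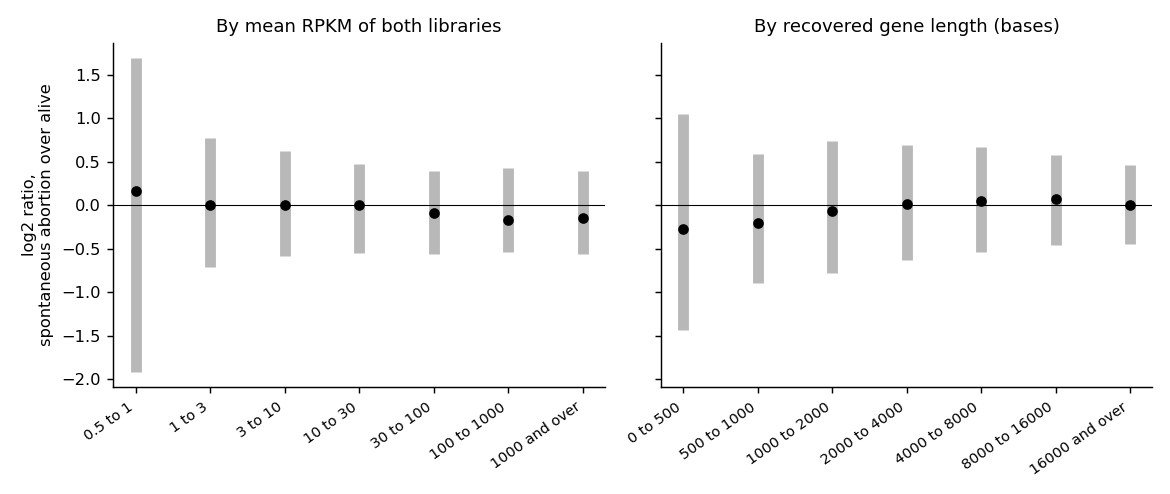
Log2 ratio of the spontaneous abortion over the alive library (y axis) by mean RPKM (left) and by recovered gene length in bases (right), with points at the median and grey bars from the 10th to the 90th percentile of the genes in a class. The bars narrow from -1.91 to 1.69 below a mean RPKM of 1 to -0.56 to 0.39 above 1000, and the medians move from -0.27 in the shortest genes to 0.07 in those of 8000 to 16000 bases.

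The most abundant transcripts were those of growth and protein synthesis. H19, an imprinted non-coding RNA of fetal tissue, stood at RPKM 35812, 30528 and 38851. IGF2, a growth factor of the fetus from the neighbouring locus, was at 26073, 18289 and 34904, a log2 ratio of 0.55 over the alive library. Below them came TPT1, a translationally controlled protein, at 5540, 4518 and 8312, and the ferritin light chain FTL at 4247, 3198 and 4600. Vimentin (VIM), which builds the filaments of mesenchymal cells, was at 3345, 2231 and 3212. The calcium-binding S100A6 lay the other way, at 1856, 3051 and 2124, and its relative S100A11 did likewise at 1795, 2950 and 2232. Both S100 genes had log2 ratios of -0.68, inside the 2-fold range.

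The widest differences upward included the Y chromosome. DDX3Y, the Y-linked copy of an RNA helicase, was at RPKM 18.8, 0.178 and 9.38, and was 108-fold higher than in the alive library (56.9 to 237). ZFY, a Y-linked zinc finger transcription factor, was at 4.04, 0.512 and 3.36, or 8.11-fold higher (6.87 to 9.64). Of the 7 Y-linked genes measured, these 2 reached RPKM 1. Several of the others held many reads all the same. UTY, a histone demethylase, had 3276 reads in the spontaneous abortion against 3 in the alive library, and USP9Y, a deubiquitinase, had 3017 against 6. Their RPKM of 0.626 and 0.628 is low because the lengths recovered for them, 175007 and 160454 bases, are far above the 2499 bases of DDX3Y. The fluid labelled F thus held next to no Y-linked reads, apart from the 152 counted for ZFY, and the unlabelled one held them at levels on the order of those of the fluid labelled M.

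Their X-linked partners leaned the other way. Of 11 X-linked copies of Y-linked genes, 10 lay below 0 and 0 passed the 2-fold rule, with a median log2 ratio of -0.31. DDX3X was at RPKM 15.6, 20.9 and 9.27, the histone demethylase KDM6A at 1.43, 2.27 and 1.03, and the ribosomal protein gene RPS4X at 330, 585 and 536. PRKX, a protein kinase, was the exception at 3.84, 2.86 and 4.44. Reads shared between X and Y copies cannot be told apart in these values.

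**Figure D3:**
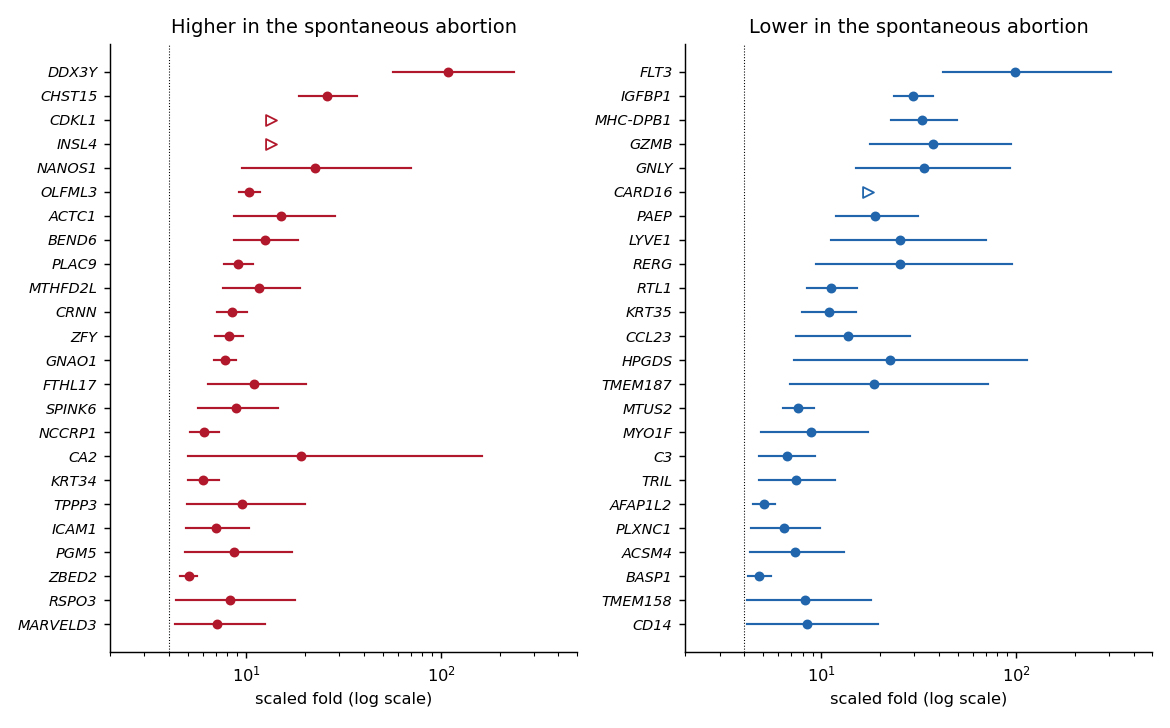
Scaled fold (x axis, log scale) of 24 named genes per direction, those reported here whose 95% interval lies farthest from 1, higher (left) and lower (right) in the spontaneous abortion, with bars for the interval and a dotted line at 4-fold. Open triangles mark genes with 0 reads in the lower library, taken as 3 reads, and DDX3Y at 108-fold and FLT3 at 99.1-fold lie farthest out.

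Placental and trophoblast transcripts stood among the higher genes. INSL4, an insulin-like peptide made by the placenta of primates, was at RPKM 1.84, 0 and 0.481, with 58 reads against 0, which makes it at least 13.4-fold higher with 3 reads taken for the alive library, while its exact interval begins at 10.6. PLAC9, a small secreted protein known from placenta, was at 70.3, 7.96 and 65.6, or 9.08-fold higher (7.71 to 10.8). ELF5, a transcription factor of trophoblast and of glandular epithelium, was at 2.6, 0.572 and 6.69. With XAGE2 they are the 4 trophoblast genes past 2-fold upward, out of 14 compared. Of the 14, 8 lay above 0 and 6 below. GATA3, a factor of trophoblast and squamous epithelium, was at 61.1, 48.8 and 46.3, VGLL1, a cofactor of trophoblast, at 86.7, 121 and 80.2, and PEG10, an imprinted gene needed for placental growth, at 35.1, 73.2 and 34.4, past 2-fold downward. The list's median was 0.13, and its summed RPKM of 330 was close to the 324 of the alive library.

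Several genes of the extracellular matrix stood among the higher ones. OLFML3, a secreted olfactomedin-like matrix protein, was at RPKM 79.0, 7.86 and 85.3, or 10.3-fold higher (9.16 to 11.7). MFAP5, a microfibril-associated glycoprotein, was at 9.36, 2.14 and 32.9. CHST15, which sulfates chondroitin chains, was at 1.67, 0.0661 and 2.24, or 25.9-fold higher (18.7 to 37.0). In each of these the stillborn library lay with the spontaneous abortion, above the alive library. PLOD2, which hydroxylates collagen for cross-linking, was at 1.48, 0.349 and 1.30, and SERPINE2, an inhibitor of serine proteases in the matrix, at 2.71, 0.625 and 3.84. Their own lists were mixed or little displaced. Past 2-fold were 2 genes upward and 1 downward of 21 for glycosaminoglycan synthesis, 1 upward of 15 for collagen processing, and 2 upward and 1 downward of 11 serpins. Of 20 matrix proteases and their inhibitors, 2 passed upward and 3 downward, and 13 lay below 0. Of 14 matricellular and elastic fibre genes, 4 were past 2-fold upward and 0 downward. The clotting and matrix protein THBS1, at 18.4, 7.42 and 15.0, and the growth factor modulator CTGF, at 7.38, 3.23 and 14.9, made up the 4 with OLFML3 and MFAP5.

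Collagens and basement membrane genes were higher in part. COL17A1, the collagen that anchors basal keratinocytes, was at RPKM 1.26, 0.317 and 2.39, or 4.08-fold higher (3.36 to 4.98). Past 2-fold upward were 3 of 13 collagens, the others being COL8A1 at 1.08, 0.357 and 0.516 and COL4A6 at 1.18, 0.551 and 2.32. All 3 reached RPKM 1 through the spontaneous abortion rather than the alive library, so their direction follows from the threshold. The abundant fibrillar collagens lay inside the 2-fold range, with COL1A2 at 32.4, 17.6 and 39.5 and COL3A1 at 28.6, 21.3 and 21.0. Of 13 laminins, nidogens and other basement membrane genes, 4 passed upward, among them the laminin chain LAMB2 at 1.18, 0.540 and 1.06, and 0 downward. This list shares COL17A1 and COL4A6 with the collagens, and LAMB2 too reached RPKM 1 through the spontaneous abortion rather than the alive library. LAMB1, the most abundant laminin chain here, was at 45.4, 57.4 and 28.8. The enzyme NDST4, which modifies heparan sulfate, went against CHST15, at 0.383, 1.60 and 0.0441, or 4.07-fold lower (3.18 to 5.26).

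Squamous and cornified epithelium gave the list with the largest share of higher genes among those with at least 15 members, jointly with the lipid carriers described below. Of 16 epidermal cornified layer genes, 6 (37.5%) passed the 2-fold rule upward, against the background of 4.47%, and 0 passed downward, with a median log2 ratio of 0.50. SPINK6, a protease inhibitor of the outer epidermis, was at RPKM 4.04, 0.470 and 44.8, or 8.83-fold higher (5.66 to 14.5). It reached RPKM 1 through the spontaneous abortion rather than the alive library, so its direction follows from the threshold. The suprabasal keratin KRT1 was at 38.0, 14.6 and 33.2, the basal keratin KRT14 at 9.64, 3.78 and 31.7, and involucrin (IVL), a scaffold of the cornified envelope, at 2.88, 1.35 and 3.94. KRT5, the usual partner of KRT14, stood level between both libraries at 151, 151 and 49.1. The lipoxygenase ALOXE3, which helps build the skin barrier, was at 11.2, 16.3 and 12.2.

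Transcripts typical of mouth and oesophagus followed the same course. CRNN, a calcium-binding protein of cornifying oesophagus, was at RPKM 11.4, 1.39 and 41.3, or 8.43-fold higher (7.06 to 10.1). NCCRP1, found in stratified squamous epithelium, was at 21.2, 3.60 and 27.3, or 6.05-fold higher (5.12 to 7.20), although it is on no list here. Of 18 genes on the oral and oesophageal list, 4 passed upward, CRNN, IL36RN, the membrane proteolipid MAL and EMP1, a surface protein of epithelia at 175, 61.9 and 197. The list's median was 0.45. The 1 gene past 2-fold downward was GPX2, a glutathione peroxidase of epithelia, at 0.593, 3.17 and 3.15. UPK1A, a uroplakin, was at 0.0417, 1.29 and 0 and had too few reads for the rule. Of 23 transcription factors of epithelium, 3 passed upward and 0 downward: ELF5, GRHL3, which closes the skin barrier, at 3.69, 1.35 and 3.47, and ZNF750, a driver of terminal keratinocyte differentiation, at 1.63, 0.686 and 1.25. ELF5 and ZNF750 reached RPKM 1 through the spontaneous abortion rather than the alive library, so their direction follows from the threshold.

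Few keratins passed the rule. Of 17 keratins of soft epithelia, 2 (KRT1 and KRT14) passed upward and 0 downward, and the simple epithelial KRT7, KRT8 and KRT19 stood on the low side at RPKM 40.8, 60.5 and 32.9, at 21.8, 29.8 and 11.4, and at 434, 554 and 316. The hair keratins KRT34 and KRT35, both type I keratins of the hair shaft, parted in opposite directions. KRT34 was at 16.7, 2.86 and 9.67, or 6.01-fold higher (5.02 to 7.23). KRT35 was at 0.669, 7.47 and 0.147, or 10.9-fold lower (7.97 to 15.1). Both stood alone on their list of 5 genes in passing the rule, and the sign of its median depended on the setting.

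The list of amniotic epithelium genes differed little between the fluids. Of 25 genes on that list, 19 entered the comparison and 0 passed the 2-fold rule in either direction, with a median of -0.03. ANXA1, an annexin that binds phospholipid, was at RPKM 1813, 1564 and 1304, and GABRP, a GABA receptor subunit of epithelia, at 197, 180 and 210. The cadherin CDH1 of epithelial junctions was at 6.82, 4.22 and 5.73. The summed level of the list was 2957, 2787 and 2239. WFDC2, a secreted whey acidic protein, was at 2378, 2545 and 1737. The amniotic epithelial markers thus stood at like levels in both libraries. That is not particular to them, since 90.3% of all genes compared lay within 2-fold.

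**Figure D4:**
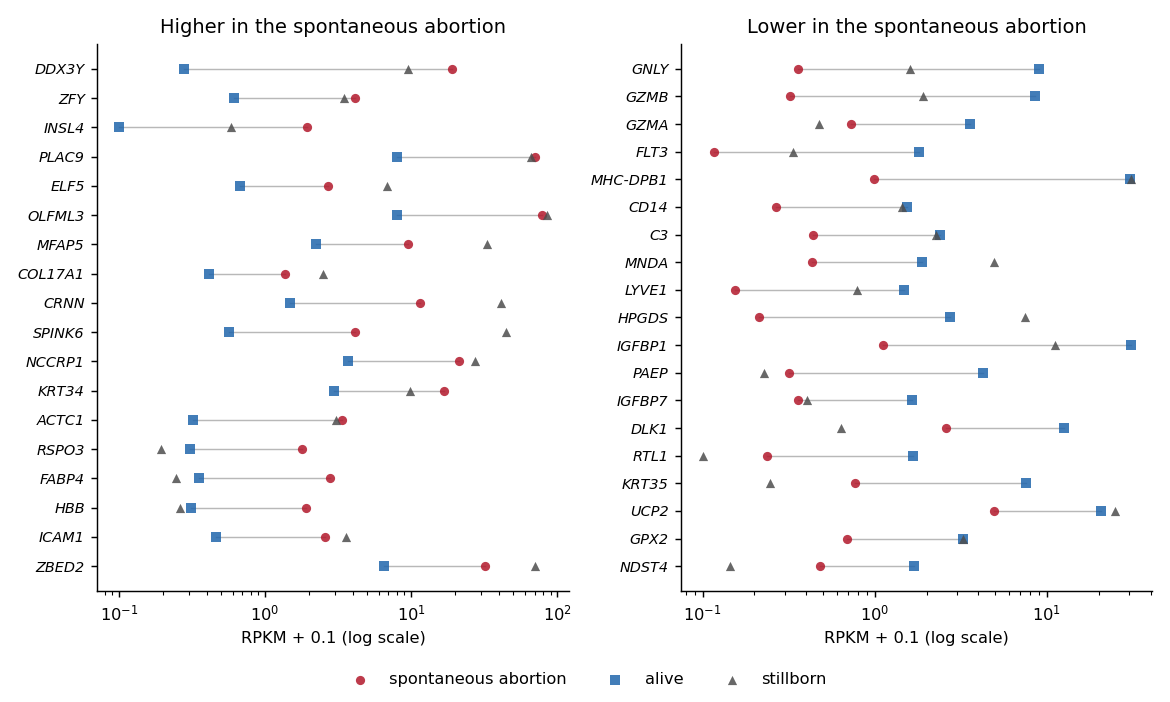
RPKM + 0.1 (x axis, log scale) of selected genes higher (left) and lower (right) in the spontaneous abortion, with 1 point for each library and a grey line between the spontaneous abortion and the alive library. In OLFML3, PLAC9 and ACTC1 the stillborn point lies beside the spontaneous abortion, in MHC-DPB1, CD14 and C3 beside the alive library, and in RSPO3, FABP4 and HBB beyond the alive library.

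Several genes of metabolism and muscle were higher, some of them with few reads behind them. ACTC1, the cardiac actin, was at RPKM 3.25, 0.222 and 2.94, or 15.1-fold higher (8.67 to 28.6), and the calcium store protein CASQ2 of heart muscle was at 42.5, 17.6 and 69.9. FABP4, the fatty acid binding protein of adipocytes and macrophages, was at 2.68, 0.256 and 0.146, or 10.8-fold higher (4.0 to 40.7). Beta globin (HBB) was at 1.82, 0.213 and 0.162 and rested on 38 reads against 3, a ratio of 8.80 (2.79 to 44.5). The carbonic anhydrase CA2 rested on 55 reads against 2, a ratio of 19.1 (5.04 to 162). In FABP4, HBB and CA2 the stillborn library was as low as the alive library or lower. APOA4, an apolipoprotein of the gut, was at 1.97, 0.376 and 1.09, and the liver and gut apolipoproteins APOC3 and APOB were at 15.2, 6.18 and 7.44 and at 8.97, 4.52 and 13.1. These 3 and FABP4 are among the 6 of 16 apolipoproteins and lipid carriers that passed upward, with 0 downward. FABP1, the liver and gut fatty acid binding protein, was at 31.8, 48.6 and 80.2.

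Single signalling genes stood at the high end, while the WNT and FGF lists were mixed. Of 13 WNT receptors, antagonists and targets, 8 lay below 0, 2 passed upward and 1 downward, and of 9 FGF ligands and receptors 1 passed each way. RSPO3, which strengthens WNT signalling, was at RPKM 1.68, 0.209 and 0.0951, or 8.26-fold higher (4.34 to 17.7), and FGF1, an acidic fibroblast growth factor, at 1.49, 0.333 and 2.88. GNAO1, a G protein alpha subunit of neurons, was at 10.5, 1.40 and 13.1, or 7.75-fold higher (6.83 to 8.82). NANOS1, an RNA-binding repressor of translation, was at 3.01, 0.137 and 1.28, or 22.5-fold higher (9.45 to 70.2), from 162 reads against 5. Among 22 BMP and TGF-beta antagonists, receptors and targets, 18 lay above 0, with a median log2 ratio of 0.28, and 2 passed upward and 0 downward. Of these, ID4, an inhibitor of DNA binding, was at 1.24, 0.455 and 1.19. Of the ligands, TGFB3 was at 0.258, 1.11 and 0.368, or 4.21-fold lower (2.67 to 6.85), while TGFB1 stood level at 3.15, 3.14 and 1.85.

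ICAM1, the endothelial and epithelial ligand of leukocyte integrins, was at RPKM 2.48, 0.364 and 3.51, or 7.01-fold higher (4.92 to 10.3). ZBED2, a transcription factor of keratinocytes, was at 31.7, 6.45 and 70.3, or 5.05-fold higher (4.59 to 5.58). Of 13 NF-kB response genes, 3 passed 2-fold upward and 0 downward: ICAM1, the cytokine IL6 at 1.82, 0.774 and 4.71, and the feedback inhibitor TNFAIP3 at 4.55, 2.14 and 5.20. The abundant members were level, with SOD2, a mitochondrial superoxide dismutase, at 36.6, 38.8 and 75.5 and NFKBIA, the inhibitor of NF-kB, at 17.2, 18.3 and 17.2. ICAM1 and IL6 reached RPKM 1 through the spontaneous abortion rather than the alive library, so their direction follows from the threshold. The list's median was -0.05, so the list was not displaced as a whole. Of 4 interleukin genes, IL6 and IL36RN, an antagonist in skin, passed upward.

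On the lower side were genes of cytotoxic granules. Of 14 measured, 3 reached RPKM 1, all through the alive library alone, so that their direction follows from the threshold. GNLY, granulysin, was at RPKM 0.256, 8.84 and 1.51, or 33.6-fold lower (15.1 to 93.1). The granzyme GZMB was at 0.22, 8.44 and 1.81, or 37.2-fold lower (17.7 to 93.9), and GZMA at 0.630, 3.46 and 0.375, or 5.34-fold lower (3.08 to 9.73). Of the T cell receptor genes and co-receptors, 1 of 24 reached RPKM 1, the kinase LCK at 0.888, 1.14 and 3.02. The summed levels of the T cell list were 1.68, 1.79 and 7.87, near the floor in the first 2 libraries.

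Among class II histocompatibility chains, 2 were lower as well. MHC-DPB1, a class II histocompatibility chain, was at RPKM 0.888, 30.1 and 30.7, or 33.0-fold lower (22.7 to 49.6), and MHC-DRA was at 3.83, 11.5 and 18.4. Some other genes of the class II pathway were near level. The lysosomal thiol reductase IFI30 was at 3.43, 3.41 and 32.4, and the asparagine protease LGMN at 8.37, 7.90 and 26.7. Of 7 class II genes, these 2 histocompatibility chains passed downward and 0 upward. The list had 3 genes above 0 and 4 below, with a median of -0.04. MHC-DPB1 reached RPKM 1 through the alive library rather than the spontaneous abortion, so its direction follows from the threshold. Reads of close histocompatibility paralogs cannot be told apart in these values. In the class I pathway 2 of 10 passed upward, the chaperones PDIA3 at 8.78, 4.07 and 9.91 and TAPBP at 3.81, 1.79 and 3.29, and B2M, the light chain, was at 16.2, 14.5 and 37.1.

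FLT3, the receptor of blood progenitors and dendritic cells, was at RPKM 0.0167, 1.70 and 0.236, or 99.1-fold lower (42.0 to 307), from 5 reads against 344. CD14, the lipopolysaccharide receptor of monocytes, was at 0.165, 1.44 and 1.33, and MNDA, a nuclear protein of myeloid cells, at 0.331, 1.77 and 4.85. C3, the central complement protein, was at 0.337, 2.29 and 2.16, or 6.62-fold lower (4.81 to 9.28), and CTSC, the protease that activates granule enzymes, at 0.151, 1.15 and 2.36. LYVE1, a hyaluronan receptor of lymphatic vessels and some macrophages, was at 0.0534, 1.38 and 0.690, and HPGDS, which makes prostaglandin D, had 3 reads against 47, a ratio of 22.6 (7.26 to 113). CARD16, an inhibitor of caspase 1, had 0 reads against 36, at least 17.3-fold lower with 3 reads taken for the spontaneous abortion, while its exact interval begins at 13.3. Each gene named from FLT3 to CARD16 reached RPKM 1 through the alive library rather than the spontaneous abortion, so its direction follows from the threshold.

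The myeloid lists held genes past 2-fold in both directions. Of 6 monocyte and macrophage genes compared, CD14 passed downward and F13A1, a clotting factor chain of macrophages, passed upward at RPKM 1.63, 0.648 and 6.79. CD68, a lysosomal protein of macrophages, was at 5.46, 4.37 and 14.9, and LYZ, lysozyme, at 4.18, 4.42 and 12. Of 5 myeloid receptors and adaptors, the chemokine receptor CCR2 and the kinase LYN passed upward, at 3.30, 1.01 and 1.57 and at 11.4, 5.48 and 16.1, and the Fc receptor chain FCER1G passed downward at 2.49, 6.2 and 20.8. Of the neutrophil genes 2 of 20 reached RPKM 1, and they parted: the calgranulin S100A9 was at 2.81, 1.10 and 10.2, and lactoferrin (LTF) at 36.4, 105 and 33.3. Across the pan-leukocyte list, whose median of -0.36 changed sign under 2 alternatives, the summed level was 278, 221 and 438, carried by ARHGDIB, a regulator of small GTPases, at 257, 196 and 344.

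Secreted defence proteins leaned low by number of genes, but hardly by summed level. Of 11 compared, 4 passed downward and 1 upward, with a median log2 ratio of -0.51. At an RPKM of at least 5 in either library the median was -0.08, and the summed level of the list was 3002, 3218 and 2507. RNASE6, an antimicrobial ribonuclease, was at RPKM 0.284, 2.29 and 6.82, and PGLYRP4, which binds bacterial cell walls, at 0.345, 1.07 and 0.662. Both reached RPKM 1 through the alive library rather than the spontaneous abortion. PI3, the elastase inhibitor elafin of skin, was the gene that passed upward, at 2.56, 0.794 and 7.29. The beta defensin DEFB1 was level at 565, 537 and 689. Of 3 chemokines, CCL25, a chemokine of thymus and gut, was at 1.59, 0.352 and 1.11, while CCL23, a chemokine of myeloid cells, was at 0.182, 2.57 and 0.418, or 13.7-fold lower (7.38 to 28.4).

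Interferon-stimulated genes lay low as a list, with 24 of 31 below 0 and a median of -0.30. Past 2-fold downward were 3: OAS2, a synthetase that activates RNA decay, at RPKM 1.66, 5.41 and 4.42, the membrane protein IFITM1 at 4.06, 11.2 and 3.38, and the antiviral GTPase MX1 at 1.78, 3.76 and 2.25. Another 2 passed upward, BST2, which tethers budding viruses, at 1.48, 0.512 and 1.01, and XAF1, a promoter of cell death, at 13.6, 6.63 and 27.4. The summed level of the list was 289, 394 and 327. IFIT2 and IFIT3, which bind viral RNA, were at 17.4, 21.1 and 16.5 and at 17.2, 23.8 and 23.2, inside the 2-fold range.

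A pair of decidual genes stood far on the low side. IGFBP1, which decidua and fetal liver secrete to bind the insulin-like hormones, was at RPKM 1.01, 30.7 and 11.0, or 29.6-fold lower (23.7 to 37.4). PAEP, the glycodelin of secretory endometrium and decidua, was at 0.216, 4.17 and 0.127, or 18.8-fold lower (11.9 to 31.3). Of the 7 decidual genes compared, 5 lay below 0, with a median of -0.52, and these 2 passed the 2-fold rule downward. The prolactin receptor PRLR was at 11.2, 7.78 and 7.69, the insulin receptor INSR at 2.16, 3.11 and 1.96, and the transcription factor FOXO1 passed 2-fold upward at 2.20, 1.09 and 2.43. The summed level of the list was 20.9, 52.7 and 28.4, and IGFBP1 made up most of the gap.

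In the wider insulin-like growth factor system, 3 of 18 genes passed downward and 0 upward, and all 3 were binding proteins. IGFBP5 was at RPKM 1.69, 6.68 and 1.43, and IGFBP7, a related secreted protein, at 0.256, 1.55 and 0.302, or 5.90-fold lower (2.91 to 13.2). IRS2, an adaptor of the insulin receptor, had the highest ratio of the system at 35.5, 21.9 and 24.8. IGF2BP3, an RNA-binding protein that takes IGF2 messages as targets, was level at 59.6, 62.9 and 54.3.

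Imprinted genes, which are read from the copy of 1 parent, split the same way. Of 23 compared, 4 passed 2-fold downward and 0 upward, while the median was 0.02. RTL1, a retrotransposon-derived gene needed in placenta and muscle, was at RPKM 0.136, 1.57 and 0, or 11.2-fold lower (8.44 to 15.3). DLK1, a Notch-related protein encoded in the same imprinted cluster, was at 2.49, 12.5 and 0.539, or 4.90-fold lower (3.95 to 6.12). NAP1L5, a nucleosome assembly protein, was at 0.848, 3.06 and 0.715, and PEG10 was the fourth. CDKN1C, a growth-restraining cell cycle inhibitor, was at 47.3, 38.1 and 41.2, and GNAS, the stimulatory G protein subunit, at 157, 165 and 154. In RTL1, DLK1, NAP1L5 and PEG10 the stillborn library lay below the spontaneous abortion as well.

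Among the remaining genes at least 4-fold lower, some belong to metabolism and the cytoskeleton. UCP2, an inner mitochondrial membrane carrier, was the most abundant named gene between 4-fold and 16-fold lower, at RPKM 4.84, 20.4 and 24.9, or 4.10-fold lower (3.76 to 4.47). BASP1, a membrane protein of growing axons, was at 2.69, 13.3 and 3.85, or 4.81-fold lower (4.19 to 5.54), and AFAP1L2, an actin-associated adaptor, at 0.248, 1.29 and 0.0662. RAB38, which serves melanosome transport, was at 0.690, 3.25 and 0.388, and PLXNC1, a semaphorin receptor, at 0.2, 1.33 and 0.664. Of the genes 2-fold to 4-fold lower, CYB5A, a cytochrome of the endoplasmic reticulum, had the highest mean, at 33.5, 127 and 38.9.

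Of the 113 higher and 92 lower genes, 54 and 42 carry a name made only of LOC and a number, and no symbol could be paired with it. Some of them exceed every named gene, and 4 were picked after their values were seen. LOC103246967 was at RPKM 594, 0.434 and 844, from 16221 reads against 8, or 1408-fold higher (714 to 3262). LOC103223220 was at 48.2, 0 and 57.6, with 1369 reads against 0, at least 317-fold higher with 3 reads taken for the alive library, and 257-fold at the lower end of its interval. In both, the stillborn library stood with the spontaneous abortion. LOC103234406 was at 22.7, 96.3 and 44.8, or 4.13-fold lower (3.91 to 4.35). LOC103222035 was at 0, 5.99 and 1.03, with 0 reads against 244, at least 117-fold lower with 3 reads taken for the spontaneous abortion, and 94.5-fold at the lower end of its interval.

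**Figure D5:**
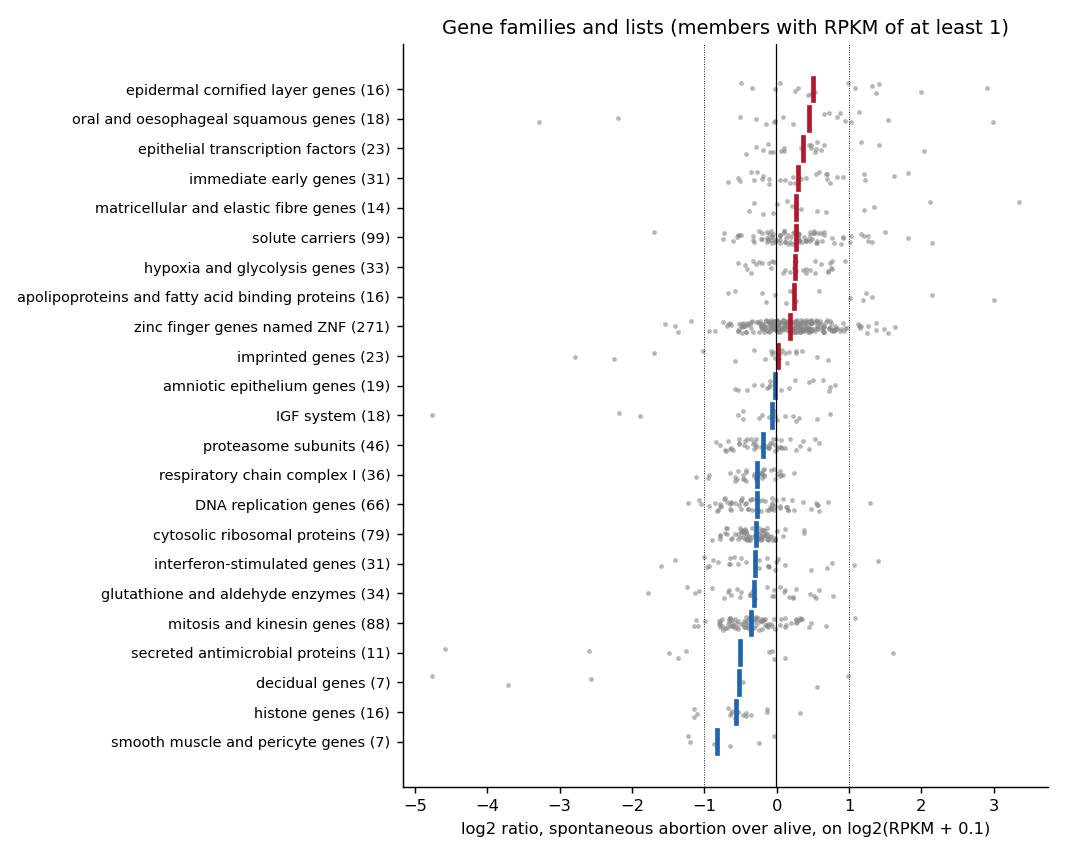
Log2 ratio of the spontaneous abortion over the alive library for the members of 23 gene lists (1 grey point per gene, number of members in brackets), with a bar at each list's median, a line at the median of all genes compared (-0.01) and dotted lines at 2-fold without the interval rule. Medians run from -0.83 for smooth muscle genes to 0.50 for epidermal genes, and lists such as the decidual one hold single members far from their median.

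Genes of cell division lay low together by small amounts. Of 88 mitosis and kinesin genes, 70 were below 0, with a median log2 ratio of -0.36, 4 passed 2-fold downward and 1 upward. CDC20, an activator of the anaphase-promoting complex, was at RPKM 5.08, 11.4 and 2.11, and securin (PTTG1), which guards sister chromatids, at 1.31, 3.11 and 0.992. CENPK, a kinetochore protein, passed upward at 1.04, 0.453 and 0.550. Of 66 DNA replication genes, 49 were below 0, with a median of -0.27. GINS4, part of the replicative helicase, was at 6.17, 15.0 and 3.66, while RRM2, a subunit of ribonucleotide reductase, was at 67.8, 79.9 and 19.1. The stillborn library was lowest of the 3 in CDC20, PTTG1, GINS4 and RRM2, and its summed level for the mitosis list was 291, below the 494 of the spontaneous abortion and the 643 of the alive library.

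Histone genes followed suit. Of 16 compared, 15 were below 0 and 3 passed downward, with a median of -0.56. The linker histones H1-3 and H1-5, which are made during DNA replication, were at RPKM 30.8, 70.4 and 10.9 and at 10.1, 23.2 and 3.48. The replacement histone gene H3F3B, made outside replication as well, was at 245, 278 and 198, and MACROH2A1, a variant of silent chromatin, at 27.3, 22.5 and 32.8. Of 96 chromatin modifiers, 1 passed upward and 1 downward. The latter was SMARCC1, a core subunit of the SWI/SNF remodeller, at 32.9, 72.8 and 25.3.

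Lists of protein synthesis and energy metabolism had medians a little below 0. Of 79 cytosolic ribosomal protein genes, 74 were below 0 with a median of -0.28, and 0 passed the 2-fold rule. Their log2 ratios ran from -0.89 for RPS18, at RPKM 478, 914 and 681, to 0.38 for RPS3A, at 1147, 906 and 1673, and RPL5. Of 36 subunits of respiratory complex I, 30 were below 0 with a median of -0.27 and 1, NDUFA3, past 2-fold, and 14 of 15 ATP synthase subunits were, with a median of -0.22. For 46 proteasome subunits the median was -0.19 with 0 past 2-fold. The mitochondrial lists were wider. Of 74 mitochondrial ribosomal proteins, 5 passed downward and 1 upward around a median of -0.20, and the log2 ratios ran from -1.31 for MRPL41 to 1.97 for MRPL54. Of 26 subunits of complexes II to IV, 2 passed upward and 1 downward around a median of -0.24. Close paralogs and processed copies share reads with ribosomal protein genes, which can move single values, and the median of short genes was low, as given above.

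Smooth muscle and pericyte genes were on the low side without exception, 7 of 7, with a median of -0.83. TPM1, a tropomyosin, was at RPKM 9.17, 22.1 and 6.0, and TAGLN, an actin-binding protein of smooth muscle, at 3.28, 7.87 and 2.47, and these 2 passed the 2-fold rule. MYL9, a regulatory light chain of smooth muscle myosin, was at 13, 24.3 and 10.1. Several of these genes are also made by fibroblasts and epithelia. The slow skeletal troponin TNNT1 passed downward as well, at 8.25, 25.9 and 15.8, as did TNNC1, the troponin of slow skeletal and heart muscle, at 3.58, 7.46 and 5.56. The ventricular myosin light chain MYL3 also passed downward, while the cardiac ACTC1 and CASQ2 passed upward, so heart muscle genes lay on both sides.

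Stress genes gave a mixed record. Of 33 hypoxia and glycolysis genes, 0 passed 2-fold, and the median was 0.25, with the lactate dehydrogenase LDHA at RPKM 532, 377 and 435 and the mitophagy receptor BNIP3 at 152, 92.5 and 123. The glycolytic enzymes ENO1 and TPI1 lay the other way, at 86.4, 120 and 41.7 and at 86.1, 128 and 51.5. Of 31 immediate early genes, 4 passed upward and 0 downward, with a median of 0.30. DUSP1 and DUSP6, phosphatases that switch off MAP kinases, were at 38.7, 11.2 and 51.4 and at 44.6, 14.8 and 29.1. Of 53 heat shock and chaperonin genes, 4 passed upward and 0 downward around a median of 0.01, with HSP90AA1 at 438, 462 and 337. Of 25 genes of the unfolded protein and ATF4 responses, 1 passed upward and 2 downward, PDIA4, a disulfide isomerase, at 1.72, 6.01 and 1.70 and NUPR1, a stress-induced nuclear protein, at 0.782, 2.54 and 9.49.

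Organ markers beyond skin and amnion entered the comparison to unlike degrees. Compared were 12 of 38 liver, 13 of 35 intestine and 10 of 17 urothelium genes, beside 16 of 46 epidermal cornified layer genes. Of 12 liver genes compared, 2 passed upward, APOC3 and APOB, and 3 downward, among them albumin (ALB) at RPKM 0.780, 1.83 and 1.51 and the vitamin A carrier RBP4 at 8.06, 17.2 and 4.60. The liver list's summed level was 311, 305 and 258. Of 13 intestinal genes, 3 passed upward, APOA4, APOB and the peptidase ANPEP, and the lectin LGALS4 passed downward at 2.87, 6.06 and 5.57. In lung, 6 of 23 markers were compared, and the secretoglobin SCGB3A1 at 0.298, 1.83 and 0.502 and the membrane mucin PDPN at 1.44, 0.364 and 34.9 passed in opposite directions, and the lipid enzyme LPCAT1 passed upward. Of 42 neuronal genes, 5 were compared, among them the filament protein INA at 5.61, 1.75 and 3.43 and tyrosine hydroxylase (TH) at 1.84, 4.54 and 1.06, again in opposite directions.

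More solute carriers lay above 0 than the 48.8% of all genes compared. Of 99, 70 were above 0 with a median of 0.26, and 11 passed 2-fold upward against 1 downward. Among the 11 were the zinc importers SLC39A4, a transporter of the gut, at RPKM 1.67, 0.415 and 0.602, SLC39A8 at 6.05, 2.54 and 7.51, and the exporters SLC30A1 and SLC30A4 at 3.19, 1.31 and 3.95 and at 4.55, 2.27 and 5.61. Of 271 zinc finger genes named ZNF, 186 were above 0 with a median of 0.19, and 11 (4.06%) passed upward, close to the background share of 4.47%. The glutathione and aldehyde enzymes went the other way, with 4 of 34 past 2-fold downward and 0 upward, among them GSTA4, a glutathione transferase, at 1.72, 6.31 and 2.10 and the retinoic acid makers ALDH1A1 and ALDH1A3.

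At the threshold that chose the genes, with the spontaneous abortion given first and the alive library second, E2F3 stood just inside at RPKM 1.0020 and 0.8740, KIDINS220 at 0.6240 and 1.0020 and ZNF474 at 1.0022 and 0.2645. Just outside were CYP2U1 at 0.9996 and 0.6366, LUC7L at 0.7687 and 0.9994 and MARVELD2 at 0.8603 and 0.9989. The count of genes apart moved with this threshold, to 71 higher and 53 lower at a mean RPKM of at least 1 and to 28 and 20 at an RPKM of at least 5 in either library. With 1 pregnancy a side, outcome, fetal sex, individual and sampling cannot be told apart.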

How the data were processed

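Per the labels' protocols, RNA of the amniotic fluid supernatant was isolated with a circulating nucleic acid kit, cleaned after DNase and made into cDNA libraries by SPIA amplification. The tools bcl2fastq 2.17, STAR and HTSeq appear in the submitters' processing notes, with no role or order. The sources used here do not give the genome build, the annotation or the gene lengths. The deposited values are RPKM per gene, made by the authors. The total of each library was solved from its lowest values, taken as very few reads, so that gene lengths came out whole. Ratios between libraries within low genes aligned the totals. Reads per gene are the smallest whole numbers that fit all libraries with a whole length, found for 23272 of 23276 genes above 0. The reads are lower bounds and hold 96.6% to 97.1% of the totals. They were tested on simulated data. Recovered lengths reach 16000 bases or more for 1299 genes compared, so levels of different genes are only loosely comparable, while ratios between libraries are unaffected.

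The spontaneous abortion (1 sample) was set against alive (1). Ratios were scaled by trimmed mean of M-values factors (0.986 and 1.01), written in Python 3.11.15 with numpy 2.4.6, scipy 1.17.1 and pandas 2.3.3. Intervals are exact Clopper-Pearson at 95%, and 0 reads were taken as 3 reads per library. List medians use log2(RPKM + 0.1), which understates ratios of low genes. Of 17250 LOC names, 6491 matched the RefSeq table of mChlSab1.0.hap1 and 866 took a symbol.

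Named genes were the 30 with the highest mean, the 30 per direction at 4-fold with the interval farthest from 1, the 8 most abundant in each of 7 bands of the ratio, 3 on each side of the threshold, X and Y copies, and, in each list, the 4 most abundant members, those at 4-fold and the 3 highest and 3 lowest ratios. List members at 2-fold and genes outside this rule were added after values were seen. Genes and lists were chosen with earlier results of these data known. After values were seen, 8 name patterns were narrowed because they took in genes of other families. Alternatives were scaling, the RPKM filter, the read minimum and the pseudocount. Some genes that meet the rule are not reported here.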

Additional observations from a re-analysis of the deposited data

How the results depend on the processing

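The 4 counts, 113 and 92 genes at least 4-fold higher and lower and 483 and 420 at 2-fold, stayed within 1.5 times under RPKM as deposited, the median of ratios, at least 10 reads, and the ratio alone on log2(RPKM + 0.1). In the same order they came to 28, 20, 146 and 146 at an RPKM of at least 5 in either library, 319, 209, 1064 and 792 with no filter on RPKM, and 22, 17, 209 and 214 for the ratio alone on log2(RPKM + 1). A mean RPKM of at least 1 left 71 and 53 at 4-fold, and at least 100 reads left 74 and 37 at 4-fold and 274 lower at 2-fold. The median log2 ratio of all genes was -0.05 on RPKM as deposited and -0.03 at an RPKM of at least 5. The genes with a symbol that were apart at 4-fold and the 30 most abundant, 139 in all, were recomputed under 2 scalings and 2 pseudocounts. Of those apart at 4-fold, 0 changed direction. That could not come out otherwise, because a pseudocount cannot reverse a scaled ratio and the scalings differed by far less than 4-fold. Changes of sign were not counted among the 30 most abundant. Among these, LOC103238605, at RPKM 3163 and 3200 in the spontaneous abortion and the alive library, had a log2 ratio of 0.02 after scaling. It lay below 0 on RPKM as deposited. The other genes named were not recomputed. Of the 44 lists with a median beyond 0.2, 8 changed sign with a stricter filter, the mean or the summed level: pan-leukocyte, myeloid receptor, red cell, intestine, urothelium, hair keratin, serpin and WNT receptor genes. Depth limits the genes under RPKM 1, and 51 genes had 0 reads in 1 library. No paired analysis was possible because each group holds 1 sample. The cause of the changes was not tested, except that a stricter filter compares fewer genes.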

Other observations

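Below RPKM 1 in both libraries lay 23177 genes, of which 3355 still had at least 30 reads in either, and 206 of these were at least 4-fold higher and 117 at least 4-fold lower in the spontaneous abortion. They were chosen after their values were seen. POSTN, a matrix protein of mesenchyme, had 12 reads in the spontaneous abortion, 199 in the alive and 43 in the stillborn library, or 23.9-fold lower (13.4 to 47.0). SALL1, a transcription factor of kidney development, had 2, 55 and 7 reads, a ratio of 39.6 (10.5 to 335). FLT3LG, the ligand of FLT3, had 2, 48 and 2 reads, a ratio of 34.6 (9.06 to 294), so the ligand and its receptor were both low. HAVCR2, an inhibitory receptor of T and myeloid cells, had 0, 32 and 22 reads, at least 15.4-fold lower with 3 reads taken, while its exact interval begins at 11.8. On the higher side, RGS7, a regulator of G protein signalling, had 376, 14 and 28 reads, or 18.7-fold higher (11.0 to 34.4).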
